A study of Sus scrofa with 4 samples.

Results

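The 10 genes described here carry out iron handling and ferroptosis, and were read by symbol from the expression table of porcine metaphase II oocytes. They are FTH1, FTL, TFRC, ACO1, IREB2, SLC11A2, SLC40A1, NCOA4, ACSL4 and SLC7A11, and each matched 1 of the 16050 rows that hold values. RNA was sequenced from oocytes matured in vitro for 44 h inside their cumulus complexes, either without added copper (Control replicates 1 and 2) or with 25 μg/mL Cu from copper sulfate (Cu replicates 1 and 3). The paper sequenced mature oocytes and reports that fewer oocytes extruded a polar body at this dose than in its controls. The comparison therefore covers oocytes that matured, not all that were exposed. All groups shared a medium with porcine follicular fluid, EGF, insulin, pyruvate, cysteine and gonadotropins. The ovaries came from a slaughterhouse, so breed, age and the animal behind each oocyte are not given, and each library pooled 3 oocytes. The transcripts were primed with oligo dT and amplified by Smart-seq2, which makes full-length cDNA of polyadenylated RNA from very few cells. Replicates are therefore separate sets of oocytes, and the sources used here do not say whether they came from separate cultures. If they did not, the p-values measure only the spread between these libraries.

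Values are FPKM, fragment numbers scaled to transcript length and to the library's total, as deposited, so levels of different genes can be set side by side per length. FPKM keeps no read number, so how deeply each library was sequenced is not known. Since each library sums several cells, a lower value in every oocyte and a loss from some of them cannot be told apart. The FPKM summed to between 616082 and 672681, and between 7923 and 9364 genes reached 1 FPKM, the highest number being that of Cu 1. Pearson's r of log2(FPKM + 1) over the tested genes was 0.918 to 0.923 between Cu 1 and the other libraries, and 0.959 to 0.976 among the other libraries, so Cu 1 stood apart. The 15 oocyte markers, among them GDF9, BMP15 and ZP2, were at 1 FPKM or more in all libraries except for 1 marker, FIGLA, in Control 2. The authors also deposited 1 averaged FPKM per gene for Control and 1 for Cu, without SD. These means are not those of the libraries analysed here. In 16050 of 16050 rows they could be averages of 3 sets per group, so that each group's mean holds 1 further set, whose own values were not analysed here. Of 15 cumulus or granulosa cell markers 9 had values, and their sum was 1.07 to 2.75 FPKM per library. The hormone AMH was listed at 0 in every library. Of 9 blood cell markers 2 had values, with sums of 0.21 to 0.92 FPKM.

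Cells take up iron as transferrin through the receptor TFRC, move it across membranes with SLC11A2, store it inside ferritin cages built from FTH1 and FTL chains, and release it through SLC40A1 (ferroportin). ACO1 and IREB2 encode the iron regulatory proteins, which bind RNA hairpins in several of their mRNAs and thereby couple ferritin translation and TFRC mRNA stability to iron. Ferroptosis is a death of cells driven by iron-dependent oxidation of membrane lipids. ACSL4 supplies the oxidisable lipids, while SLC7A11 imports the cystine for glutathione, which the peroxidase GPX4 uses to repair them. Copper and iron meet in this system, since the ferroxidases CP and HEPH that assist iron export are copper enzymes.

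In these oocytes the ferritin mRNAs lay far above all other members and the transferrin receptor lay below them all. In limma's comparison of the Cu and Control libraries, none of the 9 members that could be tested passed an adjusted p of 0.05, and none passed 0.05 unadjusted. Among the 4 libraries SLC7A11 and IREB2 were the only members in which the groups did not overlap, both with lower FPKM in the libraries labelled Cu. With the further set that the authors' means imply for each group, IREB2 stayed apart and SLC7A11 overlapped. The ferritin genes differed more between replicates of the same group than between the groups. Of all 8541 genes tested, 0% passed the adjusted limit and 7.01% the unadjusted one, so the members' counts of 0 lie near that background. Both Cu libraries lay below both Control libraries in 2 of the 9 members, against 13.4% of all tested genes, and above them in 0 members, against 25.4%. With the further sets included, all Cu sets lay below all Control sets in 1 member, against 3.97% of all tested genes. For a single gene the smallest two-sided p that an exact permutation test can reach with 2 libraries per group is 0.333.

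**Figure D1:**
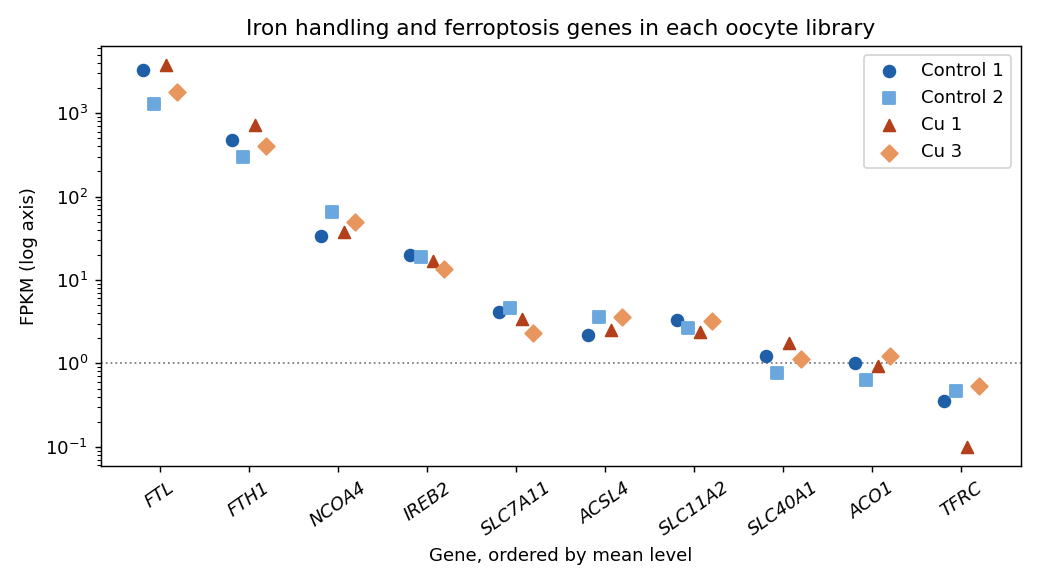
FPKM of the 10 genes on a log axis in each of the 4 libraries (circles and squares, Control 1 and 2; triangles and diamonds, Cu 1 and 3), with genes in order of their mean level and a dotted line at 1 FPKM. FTL is highest, with 1298 to 3772 FPKM, and TFRC lowest, with 0.10 to 0.53 FPKM.

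The iron store was represented by FTL, the ferritin light chain (identifier 397035, Sscrofa11.1 chromosome 6, 54231121 to 54232756). It stood at 3267 (Control 1), 1298 (Control 2), 3772 (Cu 1) and 1807 (Cu 3) FPKM. It ranked 19 and 52 in the Control libraries and 13 and 49 in the Cu libraries among the 16050 genes, and took between 0.211% and 0.571% of all FPKM of a library. FTH1, the heavy chain that oxidises iron on entry (identifier 397030, chromosome 2, 9535051 to 9537979), was measured at 478 and 299 FPKM in the Control libraries and at 728 in Cu 1 and 407 in Cu 3. Its ranks lay between 132 and 305. In both genes Cu 1 was highest, followed by Control 1, Cu 3 and Control 2, so the groups interleaved. The ratio of FTL to FTH1 in FPKM was 6.83 and 4.33 in the Control libraries against 5.18 (Cu 1) and 4.45 (Cu 3), and the Cu values lay inside the Control range.

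For FTH1 the group means were 389 ± 127 FPKM in Control and 567 ± 227 FPKM in Cu (SD, n = 2 each). The log2 fold change of FPKM + 1 from Control to Cu, called the log2 difference from here on, was 0.52 (standard error 0.39, 95% interval -0.44 to 1.49, limma adjusted p = 0.785). The higher library exceeded the lower by 1.60 times within Control and 1.79 times within Cu, while the mean in Cu was 1.46 times that in Control. For FTL the means were 2282 ± 1392 and 2790 ± 1389 FPKM, with a log2 difference of 0.34 (standard error 0.54, 95% interval -0.97 to 1.66, limma adjusted p = 0.900). Within the groups FTL varied 2.52 and 2.09 times, against 1.22 times between the means. The sign of FTL turned when Control 2 was left out, to a log2 difference of -0.32, and when Cu 1 was left out, to -0.19. Without Cu 3, FTH1 reached a log2 difference of 0.94 and a limma adjusted p of 0.0417, where 20.5% of all tested genes passed the limit. FTL had an unadjusted p of 0.0462 there, a limit of 0.05 that 34.6% of all tested genes passed, and the limma adjusted p of the other members was 0.137 or more. In that comparison Cu 1 alone stood for the Cu group and was assumed to vary like the Control libraries. Mammalian genomes hold many processed copies of ferritin genes, so that some reads of FTH1 and FTL may belong to such copies. Among the ferritin-like rows of the table, FTHL17 had 4.44 and 4.39 FPKM in the Control libraries against 4.15 (Cu 1) and 1.61 (Cu 3). The mitochondrial ferritin FTMT stayed at or below 0.28 FPKM in every library.

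NCOA4, the receptor that delivers ferritin to lysosomes so that its iron is released (identifier 100156184, chromosome 14, 90505614 to 90531302), stood at 33.3 (Control 1), 65.5 (Control 2), 38.1 (Cu 1) and 49.5 (Cu 3) FPKM. Both Cu libraries lay between the Control libraries. Its log2 difference was -0.10 (standard error 0.42, 95% interval -1.12 to 0.91), and it turned to 0.37 without Control 2 and to 0.080 without Cu 1. Control 2 had the highest NCOA4 and the lowest FTL and FTH1, whereas Control 1 had the lowest NCOA4 and the second highest ferritin. The NCOA4 order Control 2, Cu 3, Cu 1, Control 1 was found in 2.07% of the tested genes, and among the members also in ACSL4. The ferritin order was found in 5.98% of the tested genes, and among the members also in SLC40A1. The annotated span of NCOA4 overlaps that of LOC100157391, and reads of the shared stretch cannot be assigned from these values, as a strand-specific count is not stated.

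**Figure D2:**
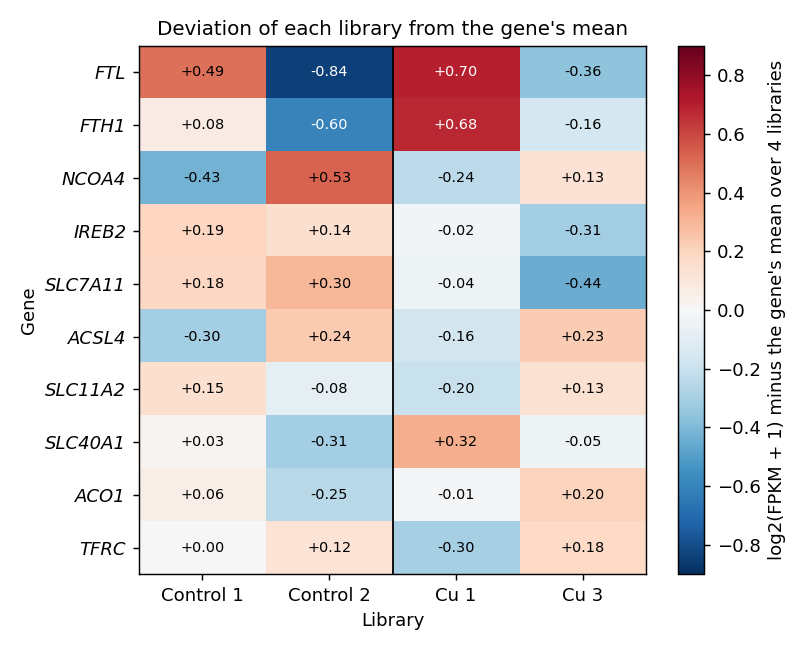
Deviation of each library from the gene's mean over the 4 libraries, in log2(FPKM + 1), for the 10 genes (rows) and the libraries (columns, with a line between Control and Cu), red above and blue below the mean. FTL deviates by -0.84 in Control 2 and 0.70 in Cu 1, NCOA4 by 0.53 in Control 2, and SLC7A11 and IREB2 are the rows whose Control cells both lie above both Cu cells.

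Of the genes of iron entry, TFRC, the transferrin receptor (identifier 397062, chromosome 13, 133976765 to 133997554), was measured at 0.35 and 0.47 FPKM in the Control libraries and at 0.10 in Cu 1 and 0.53 in Cu 3. The lowest and the highest value were both in the Cu group. It was the only member below 1 FPKM in all libraries and was not tested. When all 15559 genes above 0 in any library entered the test, its log2 difference was -0.12 (standard error 0.20, 95% interval -0.67 to 0.43, limma adjusted p = 0.887). SLC11A2, also called DMT1, which carries ferrous iron out of endosomes (identifier 733595, on an unplaced scaffold), had 3.27 and 2.64 FPKM in the Control libraries against 2.36 (Cu 1) and 3.23 (Cu 3). The groups overlapped, with a log2 difference of -0.065 (standard error 0.36, 95% interval -0.95 to 0.82). Its sign turned without Control 1 and without Cu 1, to 0.051 and 0.10.

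SLC40A1, the only known iron exporter of mammalian cells (identifier 100737517, chromosome 15, 94140635 to 94161793), stood at 1.23 (Control 1), 0.77 (Control 2), 1.74 (Cu 1) and 1.12 (Cu 3) FPKM. Its log2 difference was 0.28 (standard error 0.35, 95% interval -0.58 to 1.13), with Cu 3 inside the Control range. The copper ferroxidases that assist it were at or near 0. CP stayed at or below 0.05 FPKM, and HEPH was listed at 0 in the 4 libraries, as was HAMP, which encodes the hormone hepcidin that removes ferroportin from the membrane. The authors' means were above 0 for HEPH, at 0.013 FPKM in Control and 0.043 FPKM in Cu, and for HAMP in Control, at 0.22 FPKM, so the further sets held these transcripts at low values.

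The iron sensors differed in level. IREB2, which encodes iron regulatory protein 2 (identifier 100153993, chromosome 7, 47481539 to 47529199), was measured at 19.7 and 19.1 FPKM in the Control libraries and at 16.9 in Cu 1 and 13.6 in Cu 3. Both Cu libraries lay below both Control libraries. The log2 difference was -0.33 (standard error 0.33, 95% interval -1.15 to 0.48, limma adjusted p = 0.828), and it stayed between -0.48 and -0.19 with each library left out in turn. ACO1, which encodes iron regulatory protein 1, an aconitase when it holds an iron-sulfur cluster (identifier 100628006, chromosome 10, 33937833 to 34001895), had 1.02 and 0.63 FPKM in the Control libraries against 0.92 (Cu 1) and 1.22 (Cu 3). The groups overlapped, with a log2 difference of 0.19 (standard error 0.33, 95% interval -0.62 to 0.99). IREB2 stood above ACO1 in every library, with 13.6 FPKM at its lowest and 1.22 FPKM at the highest of ACO1. The span of ACO1 overlaps DDX58 and LOC110255598 in the annotation, which adds uncertainty to its low values.

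On the ferroptosis side, SLC7A11, the cystine importer (identifier 100623148, chromosome 8, 88608083 to 88690589), stood at 4.16 (Control 1), 4.60 (Control 2), 3.41 (Cu 1) and 2.34 (Cu 3) FPKM. Both Cu libraries lay below both Control libraries, and Cu 3 was the lowest. The authors' Cu mean, 3.51 FPKM, is above both Cu libraries, and the further Cu set it implies lay above both Control libraries. The means were 4.38 ± 0.31 FPKM in Control and 2.88 ± 0.76 FPKM in Cu (SD, n = 2 each). The log2 difference was -0.49 (standard error 0.37, 95% interval -1.39 to 0.41, limma adjusted p = 0.785), and it stayed between -0.69 and -0.29 with each library left out in turn. ACSL4, which activates arachidonic and related polyunsaturated fatty acids (identifier 448980, chromosome X, 89760863 to 89838103), was measured at 2.19 and 3.63 FPKM in the Control libraries and at 2.51 in Cu 1 and 3.62 in Cu 3. Both Cu values lay inside the Control range, with a log2 difference of 0.067 (standard error 0.39, 95% interval -0.90 to 1.03).

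In order of mean level the members were FTL, FTH1, NCOA4, IREB2, SLC7A11, ACSL4, SLC11A2, SLC40A1, ACO1 and TFRC. From FTL down to SLC7A11 each gene exceeded the next in 4 of 4 libraries with no overlap of their ranges, by 4.33 to 6.83 times for FTL over FTH1 and 4.57 to 19.1 times for FTH1 over NCOA4. SLC7A11, ACSL4 and SLC11A2 overlapped, as did SLC40A1 and ACO1, and neighbours among them kept their order in 3 of 4 libraries. In 7 of the 9 tested members the larger gap between replicates of a group exceeded the difference between the group means on the log2 scale. The share of all tested genes for which this held is not given here, so the count is not read as a trait of the members. The exceptions among the members were IREB2 and SLC7A11. With 2 libraries per group, a difference larger than both gaps means by arithmetic that the groups do not overlap. This therefore restates their lack of overlap among the 4 libraries and adds no further observation.

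**Figure D3:**
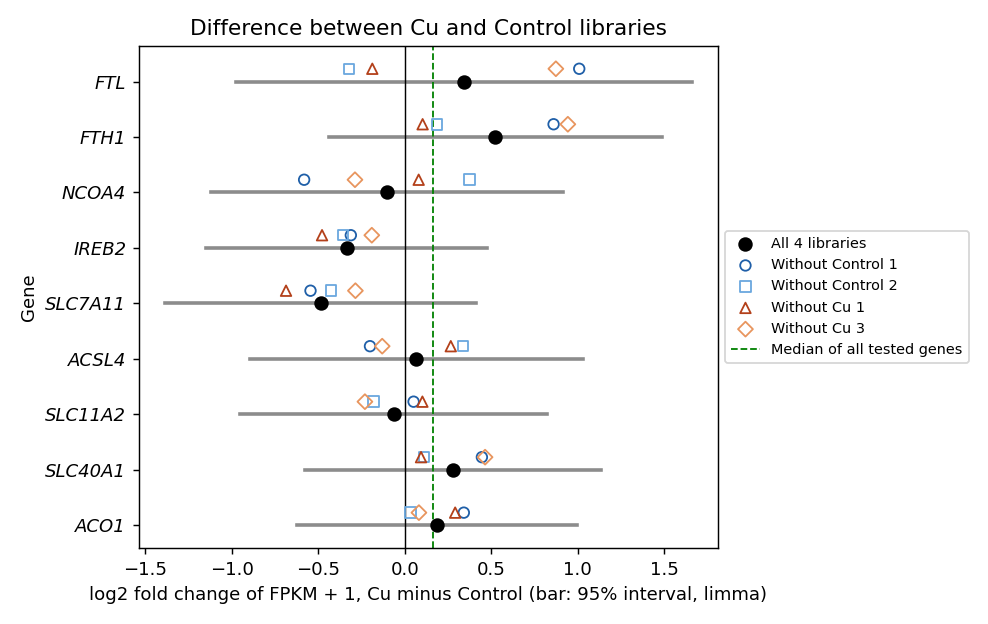
log2 fold change of FPKM + 1, Cu minus Control, for the 9 tested members (black points) with 95% intervals from limma (grey bars), open symbols for the value with each library left out, a solid line at 0 and a dashed line at the median of all tested genes (0.16). Every interval includes 0, and the open symbols of FTL, NCOA4, ACSL4 and SLC11A2 fall on both sides of 0.

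The median log2 fold change was 0.067 over the 9 members and 0.16 over all 8541 tested genes, with 5 of 9 members above 0, against 64.3% of all tested genes. The count above 0 depended on the scaling of the libraries. With quantile normalization ACO1, SLC40A1 and ACSL4 turned to -0.059, -0.0031 and -0.23, and with median-of-ratios scaling ACSL4 turned to -0.10. FTH1 and FTL stayed above 0 and IREB2, SLC7A11, SLC11A2 and NCOA4 below 0 under both scalings. The authors' mean FPKM, which include the further set of each group and so differ from the means above, were 346 for Control and 529 for Cu in FTH1, 2176 and 2348 in FTL, 20.0 and 15.1 in IREB2, and 4.20 and 3.51 in SLC7A11. They were 0.55 and 0.46 in TFRC and 49.4 and 50.0 in NCOA4, where the Cu mean was the higher one, unlike in the 4 libraries. In ACSL4 they were 3.46 for Control and 3.16 for Cu, where the Cu mean was the lower one, also unlike in the 4 libraries.

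The wider lists for iron and ferroptosis held 143 genes beyond the members, of which 130 rows had values and 78 were tested. At an unadjusted p of 0.05 in limma's test 3 were higher and 1 was lower in the libraries labelled Cu, against 5.58% and 1.43% of all tested genes, and none passed an adjusted p of 0.05. The median log2 fold change of the 78 was 0.30, against 0.16 over all tested genes. The iron-sulfur cluster list had 26 tested genes and a median of 0.31. In this list 22 genes were above 0, against 64.3% of all tested genes. Among them the assembly factor BOLA1 had the smallest p, with 0 and 0.30 FPKM in the Control libraries against 2.57 (Cu 1) and 1.18 (Cu 3) (log2 difference 1.29, standard error 0.39, limma adjusted p = 0.641). It reached 1 FPKM only in the Cu libraries, so it entered the test through the group where it was higher. Its small p is therefore not read as a result. Without Cu 3 its log2 difference was 1.65. With the further sets implied by the authors' means (0.22 and 1.47 FPKM, Control first) all Cu sets of BOLA1 lay above all Control sets. That comparison reuses the 4 libraries, and 656 of the 2168 tested genes already above in them stayed above. For BOLA1, which entered the test through those Cu libraries, it is not read as a result either. ISCU, the scaffold on which clusters are built, had 61.4 and 70.8 FPKM in the Control libraries against 117 (Cu 1) and 58.4 (Cu 3). Its Cu libraries lay on either side of the Control libraries.

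Among the iron sensing genes, FBXL5, the ubiquitin ligase subunit that marks IREB2 protein for breakdown when iron is plentiful, was measured at 107 and 162 FPKM in the Control libraries and at 86.0 in Cu 1 and 98.4 in Cu 3. Both Cu libraries lay below both Control libraries, and the log2 difference was -0.51 (standard error 0.32, limma adjusted p = 0.757). SKP1, a core subunit of the same ligase and of many others, had 275 and 321 FPKM in the Control libraries against 502 (Cu 1) and 487 (Cu 3), a log2 difference of 0.73 (standard error 0.25, limma adjusted p = 0.656). Neither passed the adjusted test. With the further sets implied by the authors' means (125 and 110 FPKM for FBXL5, 381 and 493 FPKM for SKP1, Control first) the groups overlapped in both genes. The sensing list had 7 tested genes with a median of 0.16.

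The uptake, export and storage list, which includes 5 of the tested members, had 12 tested genes with a median of 0.14, and 12 of its 28 rows with values stayed below 1 FPKM in all libraries. The iron chaperones PCBP1 and PCBP2, which load ferritin, were well expressed. PCBP1 stood at 263 (Control 1), 247 (Control 2), 426 (Cu 1) and 187 (Cu 3) FPKM, and PCBP2 was measured at 53.7 and 44.8 FPKM in the Control libraries and at 87.8 in Cu 1 and 32.8 in Cu 3. In both chaperones Cu 1 was the highest and Cu 3 the lowest library. The endosomal ferrireductase STEAP3 had 0.41 and 0.85 FPKM in the Control libraries against 1.72 (Cu 1) and 0.90 (Cu 3), and the mitochondrial iron importer SLC25A37 did not exceed 0.01 FPKM. Transferrin, TF, is named in 2 rows, and neither exceeded 0.37 FPKM.

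The heme list had 18 rows with values, of which 10 stayed below 1 FPKM in all libraries. Its 6 tested genes had a median of 0.35. HMOX1, the stress-inducible heme oxygenase that frees iron from heme, was listed at 0 in both Control libraries and in Cu 3 and had 0.13 FPKM in Cu 1.

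Of the antioxidant genes on the ferroptosis side 24 were tested, with a median of 0.45, which exceeds that of all tested genes by 0.29. Of these 18 were above 0, against 64.3% of all tested genes. GPX4 was low, with 2.04 and 1.08 FPKM in the Control libraries against 2.05 (Cu 1) and 1.43 (Cu 3) (log2 difference 0.11, standard error 0.38, limma adjusted p = 0.954). The authors' means of GPX4, which include the further sets, go the other way, with 2.44 FPKM in Control and 1.93 FPKM in Cu. SLC3A2, the partner chain of SLC7A11 in the cystine importer, stood at 0.54 (Control 1), 1.49 (Control 2), 5.45 (Cu 1) and 1.22 (Cu 3) FPKM, with Cu 1 the highest library and Cu 3 inside the Control range. DHODH, a mitochondrial enzyme of pyrimidine synthesis that also reduces ubiquinone, was measured at 27.8 and 42.0 FPKM in the Control libraries and at 56.0 in Cu 1 and 71.4 in Cu 3, a log2 difference of 0.87 (standard error 0.35, limma adjusted p = 0.703). With the further sets implied by the authors' means (39.8 and 59.4 FPKM, Control first) all Cu sets of DHODH lay above all Control sets. So did 656 of the 2168 tested genes that were already above in the 4 libraries, which this comparison reuses. DHODH was named for its small p in those libraries. PRDX6, a peroxiredoxin that reduces phospholipid peroxides, had 5.14 and 4.22 FPKM in the Control libraries against 1.98 (Cu 1) and 1.91 (Cu 3), a log2 difference of -0.94 (standard error 0.35, limma adjusted p = 0.656). The authors' Cu mean of PRDX6 was 3.23 FPKM, above both Cu libraries, and with the further set it implies the groups overlapped. AIFM2, which encodes the ubiquinone reductase FSP1, had 0.52 and 0.10 FPKM in Control 1 and 2 and 1.05 FPKM in Cu 1, and was listed at 0 in Cu 3. The lipid side had 12 tested genes with a median of 0.13, and none passed an unadjusted p of 0.05.

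**Figure D4:**
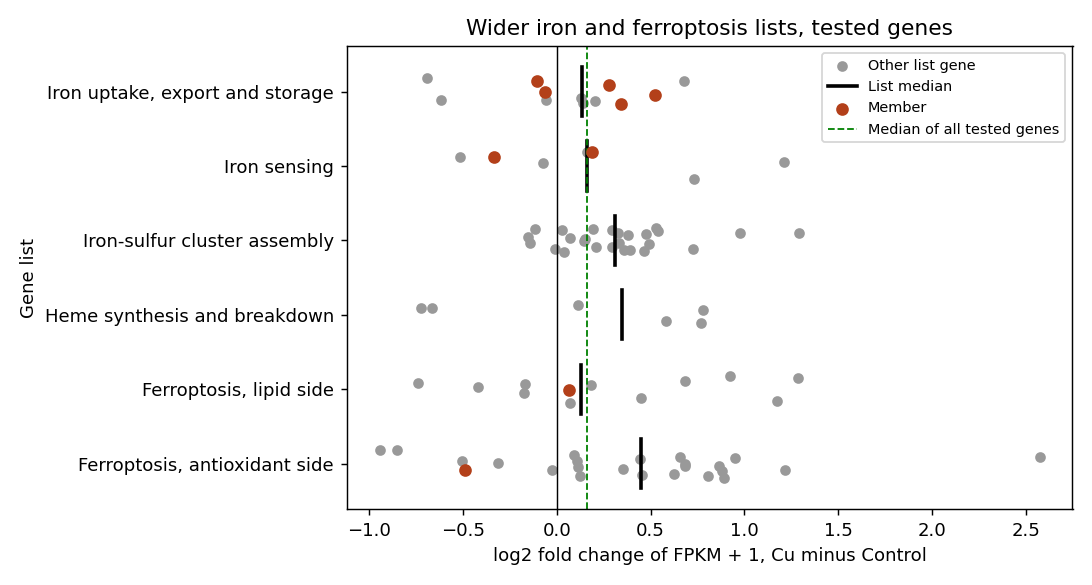
log2 fold change of FPKM + 1, Cu minus Control, of the tested genes in the 6 lists (grey points, with the tested members in red), with the median of each list (black bar), a solid line at 0 and a dashed line at the median of all tested genes (0.16). The list medians lie between 0.13 and 0.45, and the point farthest to the right, at 2.57, is OTUB1, singled out after its values were seen.

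The list medians depended on single libraries and on the scaling. OTUB1, a deubiquitinase that stabilises SLC7A11 protein, had 52.7 and 34.3 FPKM in Control 1 and 2 but 1232 FPKM in Cu 1 and 53.3 FPKM in Cu 3. Without Cu 1 the list medians were -0.051 for uptake, export and storage, -0.12 for sensing, -0.046 for heme and -0.16 for the lipid side. They were 0.11 for iron-sulfur cluster assembly and 0.17 for the antioxidant side, and the median over all tested genes was then 0.0023. Without Cu 3 most medians were higher, at 0.48 for uptake, export and storage, 0.41 for the lipid side, 0.53 for iron-sulfur cluster assembly, 0.42 for heme and 0.71 for the antioxidant side, against 0.31 over all tested genes, while sensing was at 0.081. Without Control 1 uptake, export and storage stood at 0.21 and heme at 0.19. Without Control 2 uptake, export and storage stood at 0.049, sensing at 0.031 and the lipid side at 0.26. Under quantile normalization, where the median over all tested genes was -0.068, uptake, export and storage turned to -0.030, sensing to -0.12 and the lipid side to -0.12. Under median-of-ratios scaling, where that median was -0.042, uptake, export and storage turned to -0.11 and the lipid side to -0.078, and sensing was at 0.0086. Without the filter the median was 0.25 for the antioxidant side and 0.33 for iron-sulfur cluster assembly, against 0.093 over all genes then tested. The antioxidant and iron-sulfur cluster lists had medians above 0 under each of these alternatives. The median over all tested genes was also above 0, except under quantile normalization and median-of-ratios scaling.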

How the data were processed

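RNA-seq libraries of porcine metaphase II oocytes were analysed, 2 labelled Control and 2 labelled Copper, with groups and replicate numbers taken from the sample titles. Dose, culture time and oocytes per library were taken from the study's methods and results, which describe 3 sets per group. The values are FPKM deposited by the authors, given to 2 decimals for 16050 of the table's 30684 rows, and the authors' mean FPKM of each group, which fit averages of 3 sets in 16050 of 16050 rows. The further set's value was taken as 3 times the mean less the 2 libraries and used only to ask whether groups overlapped. The study's methods name SOAPnuke, HISAT2, Bowtie2 and RSEM, whereas the submitters' processing notes list TopHat2 2.0.13, Cufflinks 2.2.1, Cuffnorm, Cuffdiff and the build Sscrofa11.1. Which of them made the values is not given in the sources used here. Gene positions are those of the RefSeq table of Sscrofa11.1, matched by identifier (16050 of 16050).

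The planned test for FPKM was used. Genes had to reach 1 FPKM in 2 or more libraries, and log2(FPKM + 1) of the 8541 that did was compared with limma 3.58.1 in R 4.3.3 (eBayes with a variance trend), and p-values were adjusted over these genes by Benjamini-Hochberg. The added 1 makes fold changes of weakly expressed genes smaller. The fit was tested on simulated data. Alternatives were a pseudocount of 0.1, no filter, quantile normalization, median-of-ratios scaling, no variance trend and leaving out each library. The members, the lists and the alternatives were chosen with earlier results of these data known. Named in the text are all members, 12 fixed partner genes, of which 1 is not reported here, and in each list up to 3 genes per direction with the smallest p among those at an unadjusted p of 0.05. Genes outside this rule (the ferritin-like FTHL17 and FTMT, and CP, HEPH, HAMP, UROD, OTUB1 and MCOLN1) were named after their values were seen.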

Additional observations from a re-analysis of the deposited data

How the results depend on the processing

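Over the 9 alternatives, 81 values of the members were computed, of which 69 kept the sign given in the report and 1, FTH1 without Cu 3, reached an adjusted p of 0.05. Quantile normalization turned ACO1 to -0.059, SLC40A1 to -0.0031 and ACSL4 to -0.23, and median-of-ratios scaling turned ACSL4 to -0.10 (log2 fold changes). These scalings moved the median of all tested genes by -0.23 and -0.21, and relative to that median FTH1 was 0.36 as deposited, 0.43 and 0.32, and SLC7A11 was -0.65, -0.70 and -0.64. When 1 library at a time was left out, FTL ranged from -0.32 to 1.01, SLC11A2 from -0.23 to 0.10, NCOA4 from -0.58 to 0.37 and ACSL4 from -0.20 to 0.34. FTH1 ranged from 0.10 to 0.94. With the further set that the authors' means imply for each group, an alternative chosen after seeing the data, the members whose groups did not overlap numbered 1 in place of 2.

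Leaving out a library leaves a group with a single library, whose spread is taken from the other group. In limma's test the members at an adjusted p of 0.05 then numbered 0 to 1, and at an unadjusted p of 0.05 0 to 2, the upper numbers without Cu 3 (FTH1, joined by FTL at the unadjusted limit). Over all tested genes the adjusted limit was passed by 0 to 1755 genes and the unadjusted limit by 127 to 2958, again highest without Cu 3, while 186 genes passed the adjusted limit without Cu 1. In the wider lists, members included, 0 to 22 genes passed the adjusted limit, 0 to 32 were higher and 0 to 7 lower at the unadjusted limit, and without Cu 1 the single gene past the adjusted limit was the lysosomal channel MCOLN1. These list counts are out of the 78 tested genes of the lists and the 9 tested members. Their upper numbers are those without Cu 3, where 1755 of all 8541 tested genes passed the adjusted limit and 2958 the unadjusted one. Counts by direction over all tested genes are not given for that comparison. The list counts are therefore not read as a response of the iron and ferroptosis genes. With all libraries, 3 were higher and 1 lower at the unadjusted limit. These became 5 and 0 without the filter, and 1 and 2 under either scaling. Without the variance trend 1 was higher. The cause was not tested. No paired analysis was possible because the groups share only replicate number 1. The read depth behind weakly expressed members such as TFRC, ACO1 and SLC40A1 is unknown.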
